A study of Homo sapiens with 6 samples.

Results

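The replication-dependent histone genes make up the core and linker histones that package newly copied DNA. They were taken as the protein-coding genes of the count table whose symbols start with HIST1H, HIST2H, HIST3H or HIST4H, which gave 71 genes of the 60504 in the table. By histone type these are 6 linker H1 genes, 17 H2A, 18 H2B, 15 H3 and 15 H4 genes. By cluster, 55 belong to HIST1 on chromosome 6, 12 to HIST2 and 3 to HIST3 on chromosome 1, and 1 to HIST4 on chromosome 12. The cells were SK-MEL-28, an established human melanoma line. In 3 libraries the cells had received an empty vector plasmid (EV), and in 3 libraries an HDAC8 plasmid. HDAC8 is a class I histone deacetylase, and the study asked how raising it changes the state of melanoma cells. According to the methods both kinds of transfected cells were kept under hygromycin, so the drug is shared by the groups. By the labels, all cells were taken at 70% confluence. The labels number the biological replicates 1 to 3 in each group but do not describe separate cultures, so p-values measure the spread between these libraries.

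Most cells make the bulk of their histones only while DNA is being copied. The mRNAs of these genes have no introns and, unlike nearly all other mRNAs, end in a short RNA hairpin (the stem-loop) in place of a poly(A) tail. The stem-loop binding protein SLBP and the U7 small nuclear ribonucleoprotein direct the cut just after that hairpin, and NPAT, a coactivator switched on by cyclin E and CDK2, drives transcription of the clusters. A smaller set of histone genes outside the clusters, such as H3F3A and H2AFZ, makes polyadenylated mRNA through the whole cell cycle.

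The libraries held 20850018 to 29822917 counts. HDAC8 itself had 357, 337 and 289 counts with the EV label, against 417, 308 and 312 with the HDAC8 label. The log2 fold change of that gene was -0.02 (SE 0.13, adjusted p = 0.924, edgeR), and its groups overlapped. Its count therefore gives no check of the labels. A second deposited table, of the authors' own fold changes, calls its groups control and test without saying which is which, and nearly all genes past both thresholds here have the opposite sign in it. Each direction below rests on the library labels alone, as HDAC8 relative to EV, and every higher and lower would turn if those labels were exchanged. The melanocyte lineage genes MITF, PMEL, MLANA, DCT, TYR and SOX10 all had at least 1375 counts in every library. Of 6 markers of other cell types, PTPRC and EPCAM had at most 1 count in any library and KRT14 at most 5, whereas LUM had 808 to 1410. Values of PECAM1 and COL1A1, also among the 6, are not given here. Only 2 of the 6 had enough counts to be tested, and 1 of those 2 had a positive log2 fold change. The summed level of these 6 markers was 37.7 to 39.4 CPM (counts scaled to a common library size with TMM factors) in the libraries labelled EV and 49.9 to 53.7 CPM in those labelled HDAC8, and its part in the results below was not tested.

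The stem-loop is the sequence that sets these genes apart, and it was looked for in the GRCh38 genome as GG, 2 free bases, CTTTT, a free base, AG, 2 free bases and CC, with arms that pair, on the gene's own strand, in the 150 bases after each stop codon. It was found in 66 of the 71 genes (93%) and in 67 of 20033 protein-coding genes in all (0.334%). The remaining gene was H2AFX, called H2AX in the annotation, which is known to make both stem-loop and polyadenylated mRNA. The histone genes used 5 forms of the hairpin, of which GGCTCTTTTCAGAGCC was in 41 genes. HIST1H2AG, HIST1H2AK, HIST1H2BI, HIST1H3E and HIST1H4L had no match in this window, which says only that these letters are not there. The 26 bases around the hairpin are shown for the 4 genes past both thresholds of the test (adjusted p of 0.05, log2 fold change of 0.58 either way) and for 3 abundant genes of other types, with the hairpin in capitals.
HIST1H1B (chr6:27866792-27866817, minus strand): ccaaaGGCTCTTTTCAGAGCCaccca
HIST1H2AL (chr6:27865773-27865798, plus strand): acaacGGCTCTTTTCAGAGCCaccta
HIST2H3PS2 (chr1:143905508-143905533, minus strand): ctaaaGGCTCTTTTCAGAGCCactgc
HIST1H3I (chr6:27871845-27871870, minus strand): caaaaGGCTCTTTTCAGAGCCcctca
HIST1H2BC (chr6:26123467-26123492, minus strand): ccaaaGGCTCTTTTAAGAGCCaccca
HIST1H4J (chr6:27824454-27824479, plus strand): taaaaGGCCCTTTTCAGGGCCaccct
HIST2H4A (chr1:149833027-149833052, plus strand): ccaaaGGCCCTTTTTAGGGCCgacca
The first 4 genes carry the same 16 bases, although 3 of them were lower and 1 was higher in the libraries labelled HDAC8. The H4 genes shown have a GC-rich arm that the others lack.

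Histone mRNAs were abundant in all 6 libraries. The 71 genes together took 0.618% to 0.681% of all counts. Their summed level was 6370, 5991 and 6804 CPM in the libraries labelled EV and 6272, 7003 and 6206 CPM in those labelled HDAC8. The means were 6388 ± 407 and 6494 ± 443 CPM (SD, n = 3), a ratio of 1.02, and the groups overlapped. Per kilobase of the canonical transcript, 50 of the 71 genes were in the top 10% of 19596 protein-coding genes and 21 were in the top 1%. The median histone gene had 110.7 CPM per kilobase and the median protein-coding gene 2.62. At the other end, HIST1H1A, HIST1H2AA, HIST1H2BA, HIST1H4F and HIST1H4G had no count in any library, which allows at most the level of 3 counts, 0.102 to 0.148 CPM per library, for counting error only. A further 7 genes had too few counts to be tested, which left 59 tested.

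**Figure D1:**
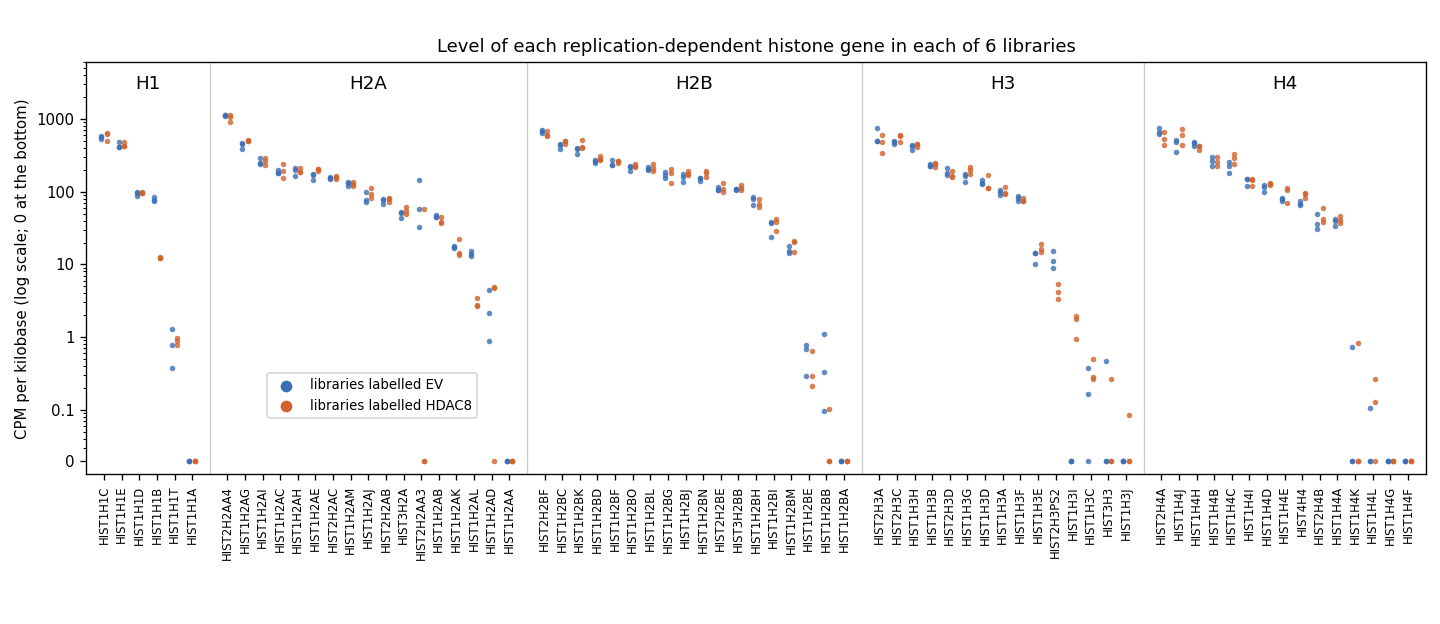
Level of each of the 71 genes in CPM per kilobase (log scale, genes at 0 drawn at the bottom), ordered within histone type by mean level. Each point is a library, blue for EV and orange for HDAC8. The points of the groups lie together for nearly every gene, while HIST1H1B and HIST1H2AL drop and HIST1H3I appears in the libraries labelled HDAC8.

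Levels within each histone type were uneven. Among linker histones, HIST1H1C had 573 CPM per kilobase, HIST1H1E 441, HIST1H1D 95.2 and HIST1H1B 45.6, as means of 6 libraries. HIST2H2AA4 led the H2A genes with 1082 CPM per kilobase, followed by HIST1H2AG with 471 and HIST1H2AI with 261. Among H2B genes, HIST2H2BF had 652, HIST1H2BC 458 and HIST1H2BK 407 CPM per kilobase. HIST2H3A, HIST2H3C and HIST1H3H led the H3 genes with 530, 517 and 424 CPM per kilobase. HIST2H4A, HIST1H4J and HIST1H4H led the H4 genes with 614, 520 and 430. These levels use the canonical transcript, and 5 of these genes have longer annotated transcripts as well. Over all merged exons, a choice made after seeing the data, HIST2H2BF was at 178, HIST1H2BC at 73.2, HIST1H3H at 165, HIST2H4A at 129 and HIST1H4H at 81.3 CPM per kilobase. The 3 most abundant genes were then HIST1H2BK, HIST1H2BF and HIST1H2BO for H2B and HIST1H4J, HIST1H4B and HIST1H4C for H4, and HIST1H3B replaced HIST1H3H for H3, while those of H1 and H2A stayed.

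The 4 genes known to be made mainly in testis were nearly silent. HIST1H2AA and HIST1H2BA were at 0, HIST3H3 had 6 counts in EV replicate 3 and 4 in HDAC8 replicate 1, and HIST1H1T, the testis linker histone, had 6 to 21 counts per library. The log2 fold change of HIST1H1T was 0.12 (SE 0.51, adjusted p = 0.902, edgeR), within its spread.

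The core histones were made from unequal numbers of genes and proteins. From the annotated coding sequences, the 15 H4 genes encode 2 proteins and the 15 H3 genes 4, whereas the 17 H2A and 18 H2B genes encode 11 and 14. The summed level per kilobase was 3010 ± 181 CPM for H2A, 3230 ± 167 for H2B, 2388 ± 206 for H3 and 2545 ± 257 for H4 in the libraries labelled EV (SD, n = 3). In those labelled HDAC8 it was 2992 ± 163, 3425 ± 135, 2406 ± 169 and 2630 ± 347. The groups overlapped for every type. H1 as a type had 1171 ± 54.8 and 1142 ± 106 CPM per kilobase.

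Genes of the canonical H3.1 protein took 42.1% ± 1.93 of the H3 level per kilobase in the libraries labelled EV and 44.6% ± 3.80 in those labelled HDAC8 (SD, n = 3). Genes of the H3.2 protein, all in HIST2, took 46.6% ± 2.41 and 44.4% ± 3.54. H3.3, made through the whole cell cycle from H3F3A and H3F3B, took 10.8% ± 0.759 and 10.8% ± 0.901. These shares overlapped between the groups. By contrast, HIST1H1B fell from 6.43% ± 0.0971 to 1.04% ± 0.126 of the linker histone level, HIST1H1C was at 45.8% ± 1.79 and 48.5% ± 2.32, and HIST1H1E at 35.7% ± 1.2 and 37.0% ± 1.77.

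**Figure D2:**
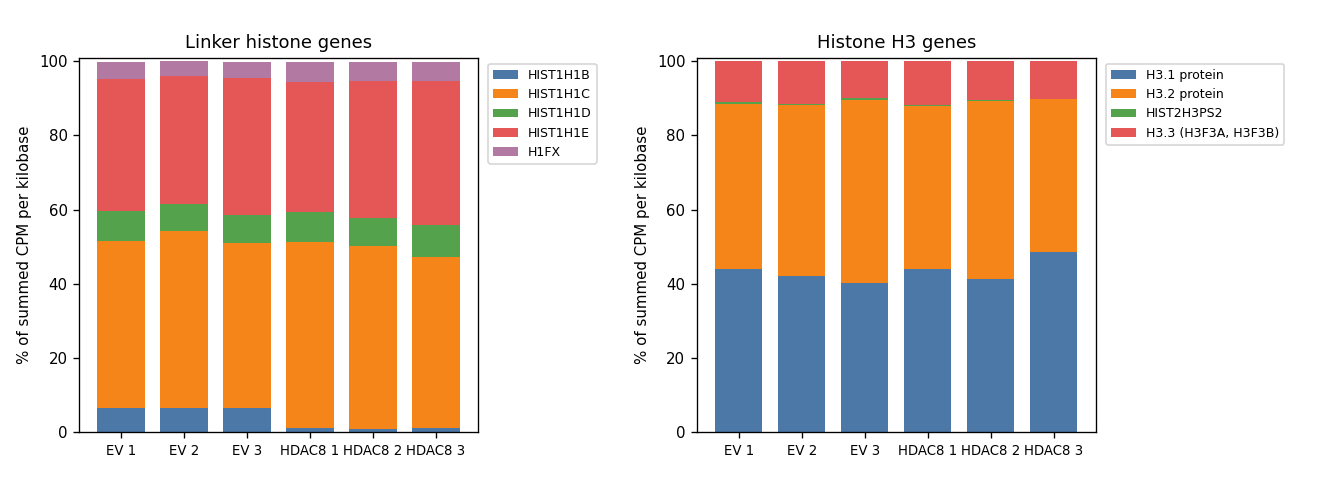
Share of each gene in the summed level per kilobase of the linker histone genes (left, with H1FX) and share of each protein in the H3 genes (right), for each library; each bar is 1 library and adds up to nearly 100%, since groups under 0.2% in every library are not drawn. The HIST1H1B segment is 6.34% to 6.53% in the libraries labelled EV and 0.926% to 1.17% in those labelled HDAC8, while the H3.1, H3.2 and H3.3 segments overlap between the groups.

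The split between the clusters moved slightly. HIST1 took 63.0% ± 0.656 of the histone CPM in the libraries labelled EV and 66.0% ± 1.29 in those labelled HDAC8, and HIST2 took 35.4% ± 0.723 and 32.2% ± 1.28 (SD, n = 3). The HIST2 share was 34.6%, 35.6% and 36.0% in the libraries labelled EV and 31.3%, 33.7% and 31.6% in those labelled HDAC8, so the groups did not overlap. As summed levels, however, the groups overlapped for both clusters. HIST1 was at 4026 ± 248 CPM (EV) and 4280.5 ± 208 CPM (HDAC8), and HIST2 at 2260 ± 166 and 2096 ± 228 CPM. HIST2 holds pairs of genes with identical coding sequence whose reads the authors' software divides, namely HIST2H2AA3 with HIST2H2AA4, HIST2H3A with HIST2H3C and HIST2H4A with HIST2H4B. Both genes of each pair lie in HIST2, so a division between them affects the values of single genes and not the cluster's sum. HIST2H2AA3 was at 372, 681 and 1913 in the libraries labelled EV and 916, 0 and 0 in those labelled HDAC8, in counts, beside 12440 to 14714 for its copy HIST2H2AA4. Its log2 fold change was -1.92 (SE 0.98, adjusted p = 0.198, edgeR). With the copies summed, a choice made after seeing the data, the pair gave -0.18 (adjusted p = 0.0631), HIST2H3A with HIST2H3C -0.05 (adjusted p = 0.802) and HIST2H4A with HIST2H4B -0.28 (adjusted p = 0.0850), and 0 of the 3 passed the threshold in edgeR.

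A gene was called where edgeR's adjusted p was below 0.05, and called past both thresholds where the absolute log2 fold change was also at least 0.58. Past both thresholds, 1 of the 59 tested genes was higher (1.69%) and 3 were lower (5.08%), against 4.07% and 3.45% of all 16195 genes tested. By the adjusted p alone, 6 were higher (10.2%) and 3 lower (5.08%), against 11.1% and 11.7% of all genes tested. The 1 gene higher past both thresholds, HIST1H3I, passed the filter on low counts only through the libraries labelled HDAC8, and with at least 10 counts in every library 0 were called higher. Nothing particular to the histone genes is read from these shares. The median log2 fold change of the tested histone genes was 0.07, with quartiles at -0.02 and 0.20, and that of all tested genes was 0.01.

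**Figure D3:**
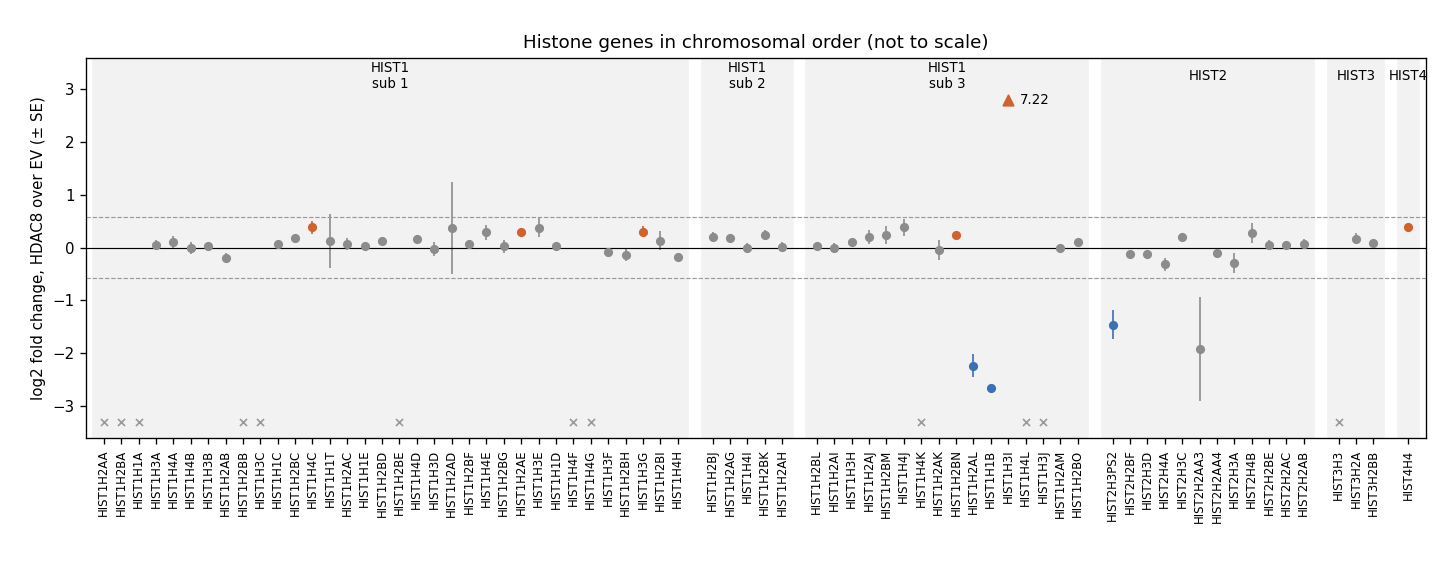
Log2 fold change (HDAC8 over EV) with its standard error for the 71 genes in chromosomal order within each cluster, spaced evenly. Orange and blue points have an adjusted p below 0.05, grey points do not, crosses at the bottom are genes not tested, dashed lines mark 0.58, and the triangle is HIST1H3I (fitted at 7.22 against no count in EV, off the scale). HIST1H2AL, HIST1H1B and HIST1H3I are next to each other in HIST1 subcluster 3.

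HIST1H1B encodes linker histone H1.5, and its mRNA was the most changed of the well-counted histone genes. Its counts were 1280, 1367 and 1648 in the libraries labelled EV and 289, 196 and 236 in those labelled HDAC8. All 3 libraries labelled HDAC8 were far below every library labelled EV. The level was 62.7 ± 3.91 and 9.89 ± 0.258 CPM (SD, n = 3), 6.35-fold lower, with a log2 fold change of -2.67 (SE 0.08, adjusted p = 1.06e-09, edgeR). In bulk RNA, fewer cells that make an mRNA and less of it per cell cannot be told apart. The other abundant linker histones, HIST1H1C, HIST1H1D and HIST1H1E, had log2 fold changes of 0.07, 0.03 and 0.03 (adjusted p = 0.611, 0.772 and 0.826), with overlapping groups.

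HIST1H2AL, an H2A gene whose 3′ end faces that of HIST1H1B across 993 bases, was also lower. Its counts were 134, 146 and 182 in the libraries labelled EV and 38, 34 and 31 in those labelled HDAC8. The groups did not overlap, and the level was 6.75 ± 0.593 and 1.43 ± 0.212 CPM (SD, n = 3). The log2 fold change was -2.24 (SE 0.22, adjusted p = 1.81e-05, edgeR). Some of its deposited counts were fractional, and whether its reads were shared with other genes was not tested.

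HIST1H3I, an H3.1 gene 4256 bases from HIST1H1B on the other side, moved the opposite way at a very low level. It had no count in the libraries labelled EV and 29, 18 and 11 counts in those labelled HDAC8. Against the level of 3 counts in each library labelled EV it was at least 5.91-fold higher. Since it passed the filter on low counts only through the libraries labelled HDAC8, its test gives no support and this value is a description. At a mean of 0.782 CPM it added little to H3.1. Its neighbour HIST1H4L, 801 bases away, had 0 to 3 counts per library.

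The rest of HIST1 subcluster 3, which spans chr6:27807479-27893891, held no other gene called lower. Of its 16 genes, 13 were tested, and apart from these 3 only HIST1H2BN passed the adjusted p, with a log2 fold change of 0.24. HIST1H2BN is the nearest tested gene on the HIST1H2AL side, 9607 bases away by the annotated ends of the genes. That end of HIST1H2BN belongs to a longer transcript, and its canonical transcript of 542 bases lies farther away. HIST1H2AM and HIST1H2BO, at the far end, had log2 fold changes of -0.00325 and 0.10 (adjusted p = 0.982 and 0.324). The subcluster as a whole was at 966 ± 72.6 CPM in the libraries labelled EV and 1010 ± 74.6 in those labelled HDAC8.

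**Figure D4:**
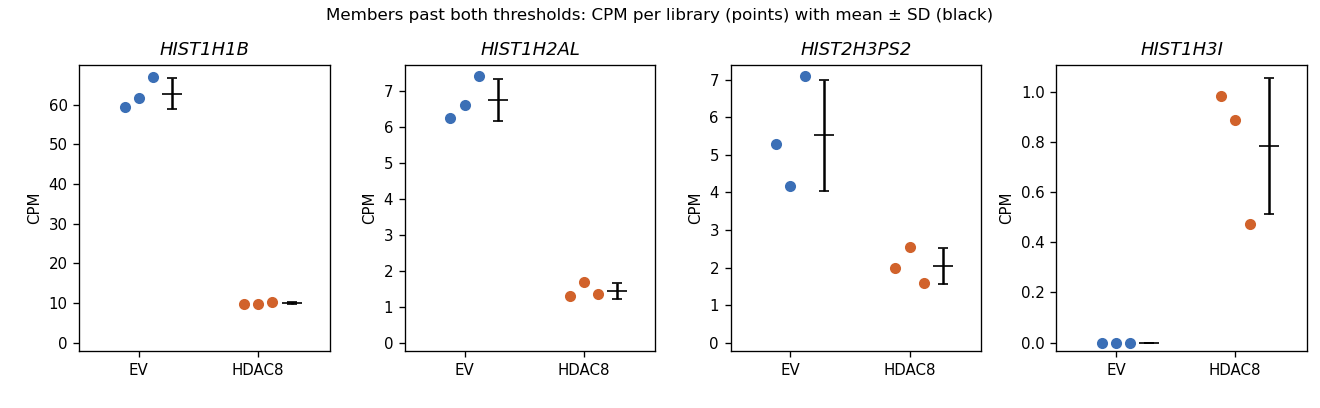
CPM of the 4 histone genes past both thresholds in each library (points) with the group mean ± SD in black; the axes start at 0 and differ between panels. For each gene the 3 libraries of a group lie wholly above or below those of the other, and HIST1H3I is at 0 in all libraries labelled EV.

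Promoters of these genes are shown because HIST1H1B and HIST1H2AL are neighbours that moved together, beside HIST1H1C, a linker gene that did not pass the test. The letters are the 150 bases before the start of the gene in RefSeq's GRCh38.p14 annotation, 5′ to 3′ on the gene's strand. Capitals mark CCAAT on either strand (ATTGG on the opposite one), the box bound by the general factor NF-Y, and AAACACA, an element known from H1 promoters. HIST1H3I had no entry in the promoter table.
HIST1H1B (chr6:27867589-27867738, minus strand): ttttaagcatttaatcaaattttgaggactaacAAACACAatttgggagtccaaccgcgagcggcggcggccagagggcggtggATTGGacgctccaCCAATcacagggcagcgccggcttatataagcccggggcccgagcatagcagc
HIST1H2AL (chr6:27865167-27865316, plus strand): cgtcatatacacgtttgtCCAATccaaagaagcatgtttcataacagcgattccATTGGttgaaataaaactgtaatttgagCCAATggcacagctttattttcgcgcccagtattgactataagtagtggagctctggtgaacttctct
HIST1H1C (chr6:26056471-26056620, minus strand): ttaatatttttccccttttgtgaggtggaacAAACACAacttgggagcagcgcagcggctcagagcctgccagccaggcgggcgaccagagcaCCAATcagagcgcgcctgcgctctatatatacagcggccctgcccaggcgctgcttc
Over the 250 bases before the start, on both strands, AAACACA was in all 6 H1 promoters and in none of the other histone promoters matched, against 4.95% of 27305 genes. So HIST1H1B and HIST1H1C share this element, and HIST1H2AL lacks it. CCAAT was in 84.8% of the 66 histone promoters matched, in every H1, H2A, H2B and H3 promoter and in 23.1% of those of H4, against 33% of all genes. The octamer ATTTGCAT was in 68.8% of H2A and 77.8% of H2B promoters, against 1.66% of all genes. TATAAA was in 66.7% of histone promoters, against 11.1% of all.

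HIST2H3PS2 (H3-7 in newer annotation) encodes an H3 protein that differs from H3.1 and H3.2, and it lies apart from the rest of HIST2 at chr1:143894544-143905977 on the minus strand. Its counts were 114, 92.5 and 175 in the libraries labelled EV and 58.2, 51.4 and 36.8 in those labelled HDAC8, with no overlap. The level was 5.53 ± 1.48 and 2.03 ± 0.478 CPM (SD, n = 3) and the log2 fold change -1.45 (SE 0.27, adjusted p = 0.00205, edgeR). Its exons share 368 bases on the same strand with the pseudogene H2BP2 and 364 with a long noncoding RNA gene, so its reads can be split by the counting and its value is uncertain. The bases printed around its hairpin are also those of HIST2H3D, which had a mean of 84.1 CPM. Whether reads were shared with HIST2H3D was not tested. RefSeq gives HIST2H2BB as the older symbol of H2BP2, but the row named HIST2H2BB in the count table has another Ensembl identifier, absent from the annotation used, so its overlap was not tested. That row had counts of 213, 162 and 243 in the libraries labelled EV and 137, 89.97 and 68.4 in those labelled HDAC8, with a log2 fold change of -1.17 (adjusted p = 0.00164, edgeR).

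Another 5 genes were higher by small amounts. HIST4H4, the H4 gene that stands alone on chromosome 12, was at 30.6, 26.7 and 27.95 CPM in the libraries labelled EV and 33.9, 39.9 and 38.1 in those labelled HDAC8, without overlap, with a log2 fold change of 0.39 (adjusted p = 0.00588, edgeR). HIST1H2AE gave 0.29 (adjusted p = 0.0138) and HIST1H2BN 0.24 (adjusted p = 0.0270), also without overlap. HIST1H4C gave 0.38 (adjusted p = 0.0371) and HIST1H3G 0.30 (adjusted p = 0.0497), where the groups overlapped. HIST4H4 passed the adjusted p in all 13 alternatives. HIST1H2AE failed without HDAC8 replicate 2 (adjusted p = 0.0575), and HIST1H2BN, HIST1H3G and HIST1H4C failed in 5, 5 and 6 of 13, each of them without EV replicate 1 (adjusted p = 0.132, 0.107 and 0.0930) and without HDAC8 replicate 2 (adjusted p = 0.133, 0.125 and 0.157). HIST1H2BN also failed without EV replicate 2, EV replicate 3 or HDAC8 replicate 1, with an adjusted p from 0.0631 to 0.0781. HIST1H3G failed without EV replicate 2 or HDAC8 replicate 3 (adjusted p = 0.189 and 0.143), and HIST1H4C without EV replicate 2 or HDAC8 replicate 1 (adjusted p = 0.144 and 0.0772). With all libraries, HIST1H3G also failed with RLE normalization (adjusted p = 0.0522, edgeR). HIST1H4C also failed with DESeq2 (adjusted p = 0.149) and with a replicate block (adjusted p = 0.0724, edgeR).

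Many H2A and H2B genes sit head to head and share a promoter region, and 12 such pairs were found, with starts 194 to 251 bases apart. In 7 pairs both genes were above 100 CPM per kilobase of the canonical transcript. HIST1H2AE with HIST1H2BG had 182 and 171 CPM per kilobase, and HIST1H2AI with HIST1H2BL 261 and 212, so the arms of these pairs were close. Others of the 7 were less even, such as HIST1H2AG with HIST1H2BJ at 471 and 168 and HIST1H2AH with HIST1H2BK at 192 and 407. HIST1H2AJ had 89.3 CPM per kilobase beside 17.4 for HIST1H2BM, so that pair was uneven. HIST1H2AK had 17.04 CPM per kilobase beside 164 for HIST1H2BN, but over its merged exons HIST1H2BN was at 20.8, so this difference rests on the length used. HIST1H2AD, at 2.87 beside 252 for HIST1H2BF, shares 435 of its 510 exon bases with a second annotated gene on the same strand, so its count is uncertain. HIST1H2AA and HIST1H2BA, the testis pair, were both at 0.

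A known polyadenylated form exists for HIST1H1C, HIST1H2AC, HIST1H2BC, HIST1H2BD, HIST1H2BJ, HIST1H2BK, HIST1H4H and HIST2H2BE, which many differentiated cells use outside S phase. All 8 were in the top 10% of protein-coding genes per kilobase of the canonical transcript, with a median of 341 CPM per kilobase. By edgeR 0 of the 8 passed the adjusted p and 4 had an unadjusted p below 0.05, while DESeq2 called 2, HIST1H4H lower and HIST1H2BC higher. Their median log2 fold change was 0.10. In edgeR those 2 genes were nearest the threshold, HIST1H4H at -0.18 (adjusted p = 0.0587) and HIST1H2BC at 0.18 (adjusted p = 0.0625). Together they were at 1519 ± 65.2 CPM in the libraries labelled EV and 1617 ± 94.2 in those labelled HDAC8 (SD, n = 3).

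The other 63 genes, for which no polyadenylated form was listed, took 0.464% to 0.518% of all counts, and 42 of them were in the top 10% of protein-coding genes per kilobase of the canonical transcript. Some of the 63, such as HIST2H2BF and HIST2H4A, also have longer annotated transcripts. Whether those are polyadenylated was not tested. The libraries are described differently by the labels and by the methods, since the labels name removal of ribosomal RNA followed by a strand-specific preparation, and the methods name another kit without saying how mRNA was enriched. Other RNAs without a poly(A) tail were measured beside the histones. RN7SL1, the RNA of the signal recognition particle, took 1.2% to 2.67% of all counts, and RPPH1, the RNA of RNase P, 0.106% to 0.254%, against 0.506% to 0.592% for the polyadenylated GAPDH mRNA and 0.329% to 0.376% for ACTB. RMRP, the RNA of RNase MRP, had 21220 to 38363 counts in the row annotated as a ribozyme. The 6 small nuclear RNA genes RNU4-1, RNU4-2, RNU5A-1, RNU11, RNU12 and RNU7-1 each had at most 25 counts in any library. Values of RNU4ATAC, RNU6ATAC and RN7SK, also on the list, are not given here. The 2 mitochondrial ribosomal RNA genes together had 700 to 7334 counts, or 0.00336% to 0.0246%, and RNA5-8SN1, a nuclear ribosomal RNA gene, had 8.5 to 83 counts. So RN7SL1, RPPH1 and RMRP were counted at high levels and these 6 small nuclear RNAs at low ones. Which kit made the libraries was not tested.

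The non-polyadenylated RNAs other than histones varied more between libraries than the histones did. RN7SL1 and RN7SL2 together were at 23383, 15098 and 28301 CPM in the libraries labelled EV and 30351, 35875 and 20621 in those labelled HDAC8, with overlapping groups. Of the 10 genes of that list that were tested, 1 was called higher (10%), near the 11.1% of all genes tested. It was TERC, the RNA of telomerase, with a log2 fold change of 0.77 (adjusted p = 0.0390, edgeR) and overlapping groups. Among the 6 polyadenylated housekeeping genes, 2 were called higher (33.3%), against the same 11.1%. GAPDH and EEF1A1 were higher by 0.21 and 0.30 on the log2 scale (adjusted p = 0.000614 and 0.000123, edgeR), and ACTB, TBP, HPRT1 and PGK1 were not called.

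A separate list held histones made independently of DNA replication, together with H2AFX, which carries the stem-loop. The summed level of the list was 1553 ± 25.8 CPM in the libraries labelled EV and 1699 ± 71.5 in those labelled HDAC8 (SD, n = 3). Of its 12 genes 10 were tested. By the adjusted p 4 were higher and 1 was lower, against 11.1% and 11.7% of all genes tested, and none was past 0.58. H2AFZ, which makes the promoter variant H2A.Z, was higher by 0.38 on the log2 scale, CENPA, the centromere H3, by 0.37, H1FX by 0.25 and H3F3A by 0.21, whereas H2AFV fell by 0.22. H2AFY (0.16), H2AFX (0.14), H3F3B (-0.14), H2AFJ (-0.44) and H2AFY2 (0.57) did not pass, and H1F0 and H3F3C had at most 3 counts per library.

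The genes that serve the histone genes were read in the order of their roles. Of 11 genes of histone gene transcription, 1 was higher and 6 were lower by the adjusted p, against 11.1% and 11.7% of all genes tested. The cyclin E genes CCNE1 and CCNE2 fell by 0.75 and 1.05 on the log2 scale (adjusted p = 0.00175 and 3.46e-05, edgeR). They were the only genes of the 5 pathway lists past both thresholds. The counts of NPAT were 1650, 1668 and 1749 in the libraries labelled EV and 1923, 1179 and 1535 in those labelled HDAC8, and after scaling the groups did not overlap, with a log2 fold change of -0.23 (adjusted p = 0.0227). E2F1 and E2F2, activators of S phase genes, gave -0.43 and -0.50, and CDK2 0.15.

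Of 13 genes of 3′ end processing, 1 was lower by the adjusted p (7.69%), against 11.7% of all genes tested. It was LSM11, a subunit of the U7 particle, with a log2 fold change of -0.31 (adjusted p = 0.0458, edgeR). By edgeR 0 were called higher and 1 was higher at an unadjusted p below 0.05, while DESeq2 called 0 in either direction. SLBP gave -0.21 and did not pass (adjusted p = 0.0871). None of the 11 genes of export, translation and decay passed edgeR's adjusted p, 1 of them (XRN1) had an unadjusted p below 0.05, and DESeq2 called 0. Of 12 histone chaperones, 1 was higher (8.33%) and 3 were lower (25%) by the adjusted p, against 11.1% and 11.7% of all genes tested. ATRX was the higher one, and CHAF1B, RBBP4 and HIRA were lower. Of 26 genes of DNA replication and S phase, 2 were higher and 13 were lower, against 11.1% and 11.7% of all genes. By both edgeR and DESeq2 0 of them also passed 0.58. PCNA, the sliding clamp, gave -0.54, the helicase subunits MCM2 and MCM4 -0.50 and -0.38, and the ribonucleotide reductase subunit RRM2 -0.46, while TOP2A and CCNA2 gave 0.44 and 0.26. The median log2 fold change was -0.21 for that list and 0.07 for the histone genes.

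**Figure D5:**
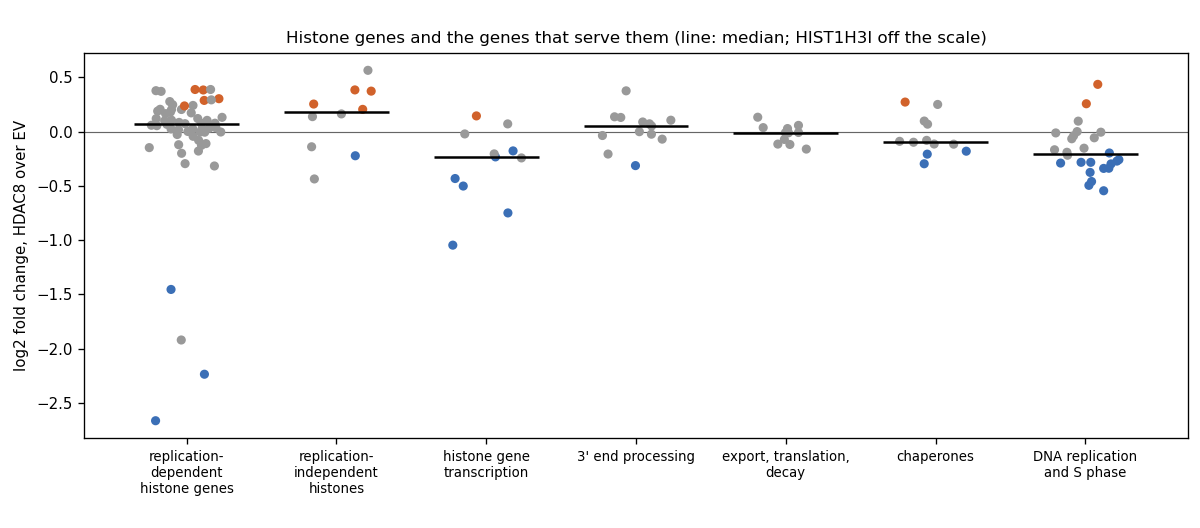
Log2 fold change (HDAC8 over EV) of each tested histone gene and of the genes that serve them, by list; orange and blue points have an adjusted p below 0.05, grey points do not, and the black line is the median of the list. Most histone genes and genes of 3′ end processing lie around 0 (HIST1H3I, at 7.22, is not drawn), and most called genes of transcription and of DNA replication lie below it.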

How the data were processed

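RNA from SK-MEL-28 cells was sequenced in 3 libraries labelled EV and 3 labelled HDAC8. Per the labels and methods, the authors trimmed reads with Trimmomatic, aligned them with STAR (GRCh38) and quantified them with RSEM. Estimated counts per gene, not normalized, were deposited by the authors, of which 5351 to 5685 per library are fractional. The counts were rounded and scaled with TMM factors. Of the 71 histone genes, 31 had a fractional count in at least 1 library. A second deposited table, which holds the authors' fold changes and p-values for the same comparison, was not used for any value. Its header does not say which group is the control, and its signs are mostly opposite to those from the labelled counts.

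The test was edgeR 4.0.16 (quasi-likelihood, filterByExpr, group only, Benjamini-Hochberg over 16195 genes) in R 4.3.3, where the study used DESeq2, an alternative here (1.42.0). The thresholds, an adjusted p of 0.05 and an absolute log2 fold change of 0.58, are those of the study's methods, whereas the legend of its RNA-seq comparison names an unadjusted p. Levels per kilobase used the Ensembl canonical transcript of GENCODE 44, with merged exons as an alternative. All 71 genes were matched to that annotation, 5 of them by older symbol. HIST1 subclusters are runs of genes with gaps of at most 300000 bases. Intervals and floors cover counting error only, as no molecular identifiers are named. On simulated counts for this comparison over 16195 genes, edgeR recovered 195 of 200 genes changed, with 3 false calls. The changed genes were drawn from those with a mean above 5 CPM. All were given the same change, up or down, larger than that of the histone genes called by the adjusted p alone. So this recovery does not cover smaller changes or genes at lower levels, such as HIST1H2AL, HIST2H3PS2 and HIST1H3I.

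Named genes were the histone genes past the adjusted p, the 3 most abundant per type, those with a known polyadenylated form or known from testis, genes of the pathway lists past both thresholds with SLBP and NPAT, the comparison lists, and HDAC8. The neighbours of HIST1H1B, the copies with identical sequence, the head-to-head pairs, HIST2H2BB, the genes abundant over merged exons and the other pathway genes named were chosen after their values were seen. The members and lists were chosen with earlier results of these data known. Alternatives were other normalizations, DESeq2, other filters, no fold threshold, a replicate block, each library left out, only genes with whole counts and, chosen after seeing the data, summed copies.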

Additional observations from a re-analysis of the deposited data

How the results depend on the processing

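HIST1H1B, HIST1H2AL and HIST2H3PS2 stayed past both thresholds in all 13 alternative fits. With at least 10 counts in every library HIST1H3I was not tested, so 0 histone genes were called higher. Without the fold threshold 6 were called higher, and over all genes 1790 higher and 1891 lower. Among histone genes with whole counts only 1, HIST1H1B, was called lower. By the adjusted p alone, no filter on low counts gave 13 higher and 7 lower; leaving out single libraries gave 2 to 8 higher and 3 to 5 lower, with 3 higher without EV replicate 2, 2 higher and 5 lower without HDAC8 replicate 2, and 5 lower without HDAC8 replicate 3. Past both thresholds, leaving out libraries gave 1 to 1 higher and 3 to 4 lower histone genes, and 560 to 661 higher and 456 to 606 lower of all genes.

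The summed histone level was 2843 (EV) and 2974 CPM (HDAC8) over genes with whole counts, and 4869 and 4877 CPM without those with a known polyadenylated form. Leaving out a library gave 6181 to 6587 CPM for EV and 6239 to 6637 CPM for HDAC8. The median log2 fold change of the tested histone genes was 0.03 to 0.09 over these fits.

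Same-numbered libraries did not deviate together (correlations -0.0264, -0.0906 and 0.00640), so the numbers do not pair the samples. With the replicate number as a block, 1 histone gene was higher and 3 were lower past both thresholds, and 601 and 497 of all genes; among the named genes HIST1H4C lost its call (adjusted p = 0.0724), and HIST1H2BK and HIST1H4H gained one (adjusted p = 0.0274 and 0.0389).

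Sign changes were among genes never past the adjusted p in edgeR with all libraries. HIST1H2AI, at 0.00173 in the fit as reported, was -0.000634 with RLE normalization, -0.00374 with DESeq2, -0.00606 without a filter and -0.0022 with at least 10 counts. Leaving out libraries moved HIST1H2AI from -0.0818 to 0.0826, HIST1H1C from -0.0161 to 0.162, HIST1H1D from -0.0231 to 0.0583, HIST1H1E from -0.0452 to 0.0900, HIST1H1T from -0.223 to 0.589, HIST1H2AC from -0.0943 to 0.204 and HIST2H2BE from -0.0671 to 0.144. The groups of 3 libraries, the division of reads among near-identical copies, and the low counts of HIST1H3I and HIST2H3PS2 limit the precision. The cause was not tested.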

Other observations

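Of 18 histone-named pseudogenes in the table, 4 were tested. The counts of HIST2H2BD were 54.3, 66.6 and 59.3 in the libraries labelled EV and 111, 106 and 100.49 in those labelled HDAC8, with a log2 fold change of 0.74 (adjusted p = 0.0378, edgeR). HIST2H2BA gave -0.84 and did not pass (adjusted p = 0.0856, edgeR). Pseudogene counts are uncertain, since their reads resemble those of the functional genes.

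Among histone genes with over 100 counts in every library, the within-group coefficient of variation had a median of 7.55% over 28 genes with whole counts and 10.9% over 25 genes with fractional counts.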
